A study of Mus musculus with 12 samples.

Results

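The 2 voltage-gated calcium channel genes Cacna1c and Cacna1d were deleted in NG2-expressing cells, and the question addressed here is how far the transcriptional difference between knockout and control mice was shared by 2 cell preparations from the cortex. A gene was included when its symbol matched between the OPC table and the neuron table and its mean raw count was at least 10 in both, which held for 13399 genes, out of 30165 genes in the OPC table and 17918 in the neuron table. These genes held 89.9% to 93.5% of the counts of the OPC libraries and 98.7% to 98.9% of those of the neuron libraries. For each gene the log2 fold change between double knockout (dKO) and control (ctl) mice was computed separately in either preparation, and the change in neurons was then subtracted from the change in OPCs.

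The 12 libraries were made from mouse cortex, 3 for each of the groups OPC ctl, OPC dKO, Neuron ctl and Neuron dKO, with cells of 2 mice pooled per library. The dKO mice carried the tamoxifen-inducible recombinase NG2-CreERT2 and floxed alleles of Cacna1c (exons 14 and 15, encoding Cav1.2) and Cacna1d (exon 2, encoding Cav1.3). The regimen given first in the methods is 100 mg/kg tamoxifen, given on postnatal days 7 and 8, and those used for sequencing and the age at sorting are not stated separately. The ctl mice are labelled WT, and whether they carried the recombinase or a floxed allele is not stated. OPCs, the oligodendrocyte precursor cells, were taken with beads against CD140, NG2 and O4, and neurons were what remained once cells bound by ACSA-2, CD31, CD11b or O4 beads had been removed. The NG2 promoter that drives the recombinase is active in OPCs and also known for its activity in pericytes. Nothing states that OPC and neuron libraries of the same number came from the same mice, and p-values measure only the spread between pools.

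Both preparations held RNA of cells other than those named in the labels. In the OPC libraries the median of 20 markers of mature oligodendrocytes lay between 232.5 and 378 FPKM (fragments scaled by gene length and depth), against 3.63 to 14.03 FPKM for 20 OPC markers. In the neuron libraries the median of 20 endothelial markers was 254.4 to 734.4 TPM (transcript abundance scaled by length and depth), against 16.8 to 30.0 TPM for 20 neuron markers, and red blood cell genes summed to between 52840 and 269900 TPM. None of the markers in these lists was at 0 throughout a group. The names OPC and neuron below therefore mean the libraries so labelled, and in such mixtures fewer cells of a type and less RNA per cell cannot be told apart. Y-linked genes also divided the libraries. Ddx3y, a Y-linked RNA helicase, had 2141 to 2502 normalized counts in 5 OPC libraries and 0 in OPC dKO replicate 2, and among neurons it had 3148 in ctl replicate 1 and 2524 in dKO replicate 1, against 0 to 14.2 in the other 4. The OPC libraries held 14935963 to 19812274 counts and the neuron libraries 15052892 to 16344601.

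The targeted genes are given first. Cacna1c had 373, 411 and 439 normalized counts in OPC ctl libraries and 252, 337 and 312 in OPC dKO libraries, so the groups did not overlap, and the log2 change was -0.44 ± 0.15 (SE). In neurons, Cacna1c had 93.4, 111 and 62.2 counts in ctl and 165, 139 and 57.3 in dKO libraries, and the groups overlapped. Cacna1d had 251, 191 and 255 counts in OPC ctl libraries against 92.8, 153 and 232 in OPC dKO libraries, and 30.5, 10.7 and 20.4 against 54.8, 25.6 and 26.6 in neurons. The groups overlapped in both preparations. The difference of the changes was -0.88 ± 0.46 for Cacna1c and -1.34 ± 0.61 for Cacna1d, with adjusted p of 0.481 and 0.422 by edgeR. Cspg4, which encodes NG2, had 564, 816 and 782 counts against 759, 938 and 689 in OPCs, which overlapped, and 167, 140 and 63.2 against 43.1, 71 and 29.7 in neurons, with a change of -1.36 ± 0.48 there and overlapping groups. Counts over the whole gene do not show the deleted exons, which are not resolved in these tables.

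Voltage-gated calcium channels consist of a pore-forming subunit with auxiliary beta and alpha2delta subunits, and they couple membrane depolarization to calcium entry. Of the 16 channel genes tested, 10 were lower in OPC dKO libraries and 15 were higher in neuron dKO libraries, with medians of -0.05 (-0.13 without OPC ctl replicate 1 and 0.01 without OPC ctl replicate 3) and 0.54 (0.35 without neuron dKO replicate 1). The lowest change of the list in OPCs was that of Cacna1d (-0.55), so a targeted gene is itself counted among the lower ones. At an unadjusted p under 0.05, 3 were lower in OPCs and 0 were changed in neurons. Of all genes tested, 5.25% were lower in OPCs and 9.01% changed in neurons at that level. Cacnb4, a beta subunit, had 1423, 1566 and 1413 counts in OPC ctl and 1138, 1134 and 938 in OPC dKO libraries, but 361, 366 and 344 in neuron ctl and 759, 392 and 432 in neuron dKO libraries. Both pairs of groups were apart, in opposite directions, with a difference of -1.02 ± 0.29 (adjusted p = 0.3 by edgeR).

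Across all 13399 genes, the changes in OPCs and in neurons showed a weak negative correlation, with Pearson's r of -0.12 and Spearman's rho of -0.08. This r is a description across genes, which share libraries within each comparison and are not independent replicates, although the OPC and neuron comparisons have no library in common. The changes had the same sign for 6410 genes (47.8%) and opposite signs for 6989. They had a standard deviation of 0.38 in OPCs and 0.43 in neurons, beside a median standard error of 0.17 and 0.22. By the smaller of its mean counts, r was -0.16 for the 4466 genes of lowest expression, -0.12 for the 4465 in between and -0.16 for the 4468 of highest expression. It was thus negative at each of these levels. Its size rested on single libraries: r was -0.23 without OPC dKO replicate 2, -0.02 without OPC dKO replicate 3, -0.05 without neuron ctl replicate 1, and -0.07 without OPC ctl replicate 1 or without OPC dKO replicate 1.

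**Figure D1:**
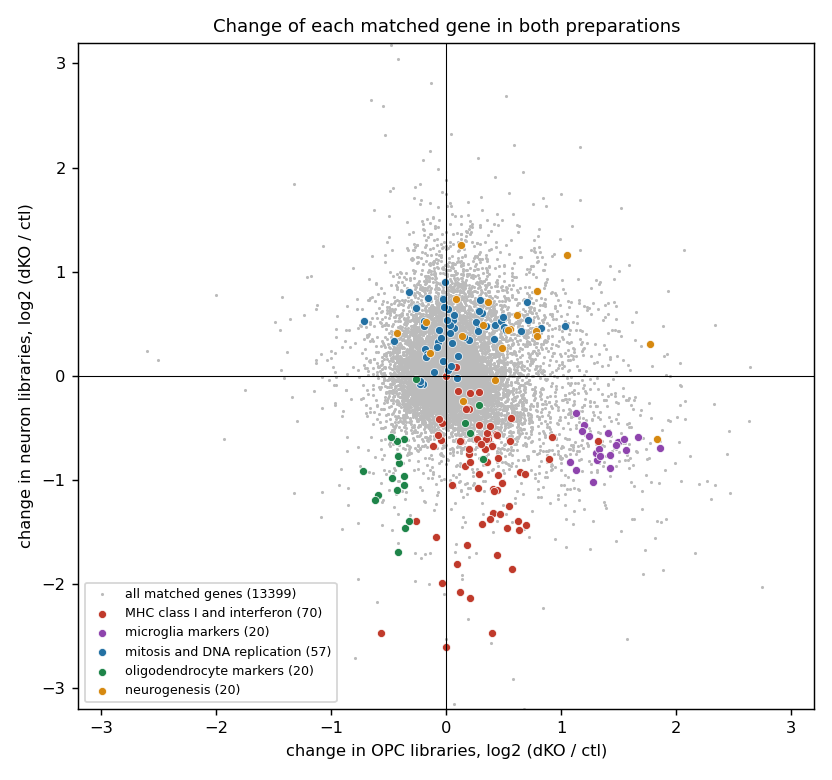
Log2 change between dKO and ctl libraries in OPCs (horizontal axis) and in neurons (vertical axis), 1 point per matched gene, with 5 groups of genes coloured; 4 of the 13399 genes lie outside the axes. MHC class I, interferon and microglia genes lie mostly at the lower right, mitosis and DNA replication genes mostly above the horizontal axis, and oligodendrocyte markers mostly at the lower left.

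Single genes were tested with edgeR's quasi-likelihood test and Benjamini-Hochberg adjustment. At an adjusted p under 0.05, 1 of 17382 genes tested in OPCs (0.00575%) and 0 of 14355 in neurons (0%) were called, and for 0 of the 13399 matched genes (0%) did the changes differ. The counts by DESeq2 were 291, 88 and 156. Genes are therefore counted below at an unadjusted p under 0.05, which is not a call on any single gene. By this measure 11.5% of genes tested in OPCs (6.25% higher, 5.25% lower) and 9.01% in neurons (4.96% higher, 4.05% lower) stood out, and the changes differed for 1567 of 13399 genes (11.7%). The change in OPCs was the higher one for 923 of these (6.89%) and the lower one for 644 (4.81%). Without regard to p, the dKO and ctl libraries did not overlap for 16.9% of genes in OPCs and 15.3% in neurons.

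Of the matched genes, 1565 in OPCs and 1192 in neurons had an unadjusted p under 0.05, and 146 had one in both, which is 9.33% of the OPC genes and 12.2% of the neuron genes. Of all matched genes, 8.9% had such a p in neurons and 11.7% in OPCs, so these shares were near the background. The direction was the same for 57 of them and opposite for 89. Within these, 40 genes were higher in both, 17 lower in both, 72 higher in OPCs but lower in neurons, and 17 lower in OPCs but higher in neurons. The 72 genes were 7.68% of the genes higher in OPCs and 13.7% of those lower in neurons, whereas the 40 genes were 4.26% and 5.99% of those higher in OPCs and in neurons. The 17 genes lower in both were 2.7% and 3.2% of those lower in OPCs and in neurons. The 17 lower in OPCs but higher in neurons were 2.7% of those lower in OPCs and 2.5% of those higher in neurons. Of all matched genes, 3.91% were lower and 4.99% higher in neurons at that level, and 7% were higher and 4.68% lower in OPCs. Of the 72 genes, 22 belonged to 1 or more of the gene lists used here. Among them were 6 of cytokines and NF-kB signalling, 5 of the interferon response and 5 of MHC class I and antigen processing. In that order, these lists held 28, 48 and 22 of the 13399 matched genes. The opposite class had 197 genes without OPC dKO replicate 2, 142 without neuron ctl replicate 2, 49 without OPC dKO replicate 3, 48 without neuron ctl replicate 1 and 47 without OPC ctl replicate 2. The class of equal direction had 114 genes without OPC ctl replicate 1 and 36 without OPC ctl replicate 2. Equal direction became the more frequent class without OPC ctl replicate 1 (114 against 69 genes), without OPC dKO replicate 1 (77 against 74) and without OPC dKO replicate 3 (64 against 49), and the classes were equal without neuron ctl replicate 1 (48 against 48). With a term for libraries with or without Y-linked transcripts, 291 genes were opposite and 52 equal. In the OPC table that term sets OPC dKO replicate 2 apart from all other libraries.

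**Figure D2:**
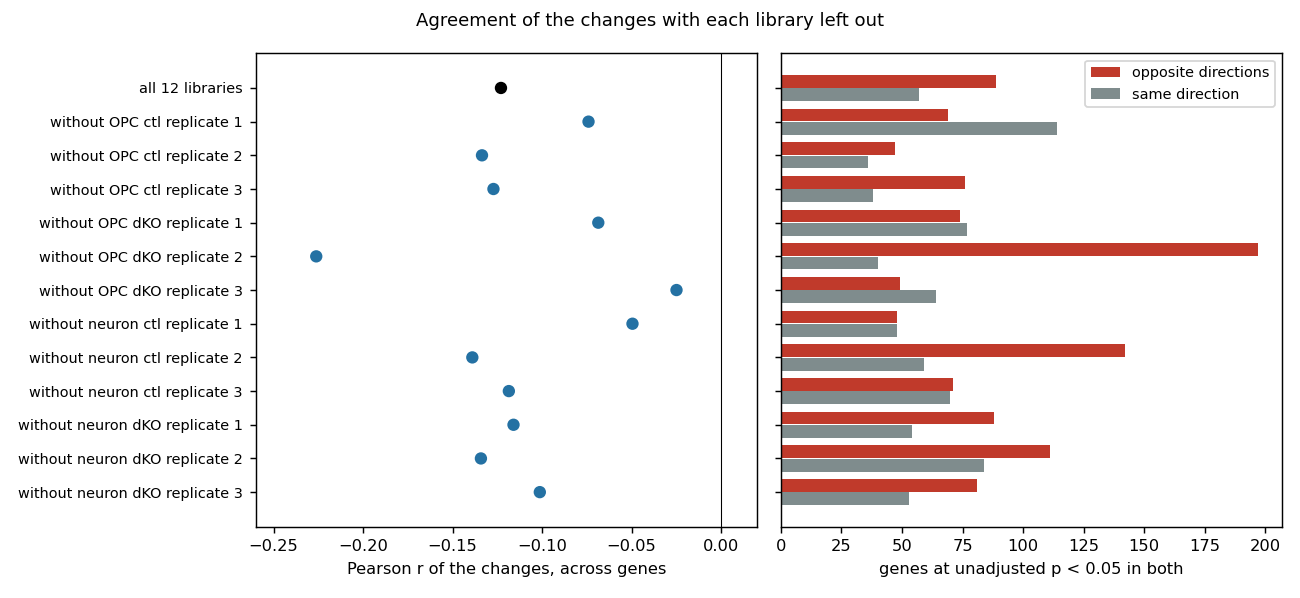
Pearson's r between the changes across genes (left) and the number of genes at an unadjusted p under 0.05 in both preparations with opposite or the same direction (right, bars from 0), for all 12 libraries and with each library left out. The r stays below 0 in each row and the number of opposite genes runs from 47 to 197.

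Genes whose change was higher in OPCs than in neurons are described first. Lysmd2 on chromosome 9 (ENSMUSG00000032184), which encodes a LysM domain protein, had 161, 187 and 244 counts in OPC ctl and 360, 360 and 292 in OPC dKO libraries. In neurons it had 1689, 1186 and 1133 counts in ctl and 618, 587 and 817 in dKO libraries. Every dKO library lay above the ctl libraries in OPCs and below them in neurons, with a difference of 1.76 ± 0.29. Further genes with both pairs of groups apart in these directions were Cyp2d22, a cytochrome P450, at a difference of 1.25 ± 0.22, Fmo2, a flavin-containing monooxygenase, at 1.79 ± 0.36, and Ier3, an immediate early gene, at 1.41 ± 0.26. Their adjusted p by edgeR lay between 0.173 and 0.195.

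Itgax on chromosome 7 (ENSMUSG00000030789), which encodes the integrin alpha X chain CD11c of dendritic cells and reactive microglia, is given as values without a test. It had 1.75, 2.38 and 1.04 normalized counts in OPC ctl libraries and 16.6, 28.1 and 20.3 in OPC dKO libraries, but 103, 30.2 and 153 in neuron ctl libraries and 4.9, 4.73 and 0 in neuron dKO libraries. Neither pair of groups overlapped. With group means of 1.73 in OPC ctl and 3.21 in neuron dKO libraries, it passed the minimum mean count of 10 only through the groups where it was high. The mean of 1 genotype was under that minimum in either preparation for 304 of the 13399 genes (2.27%), and for 8 of the 146 genes above.

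**Figure D3:**
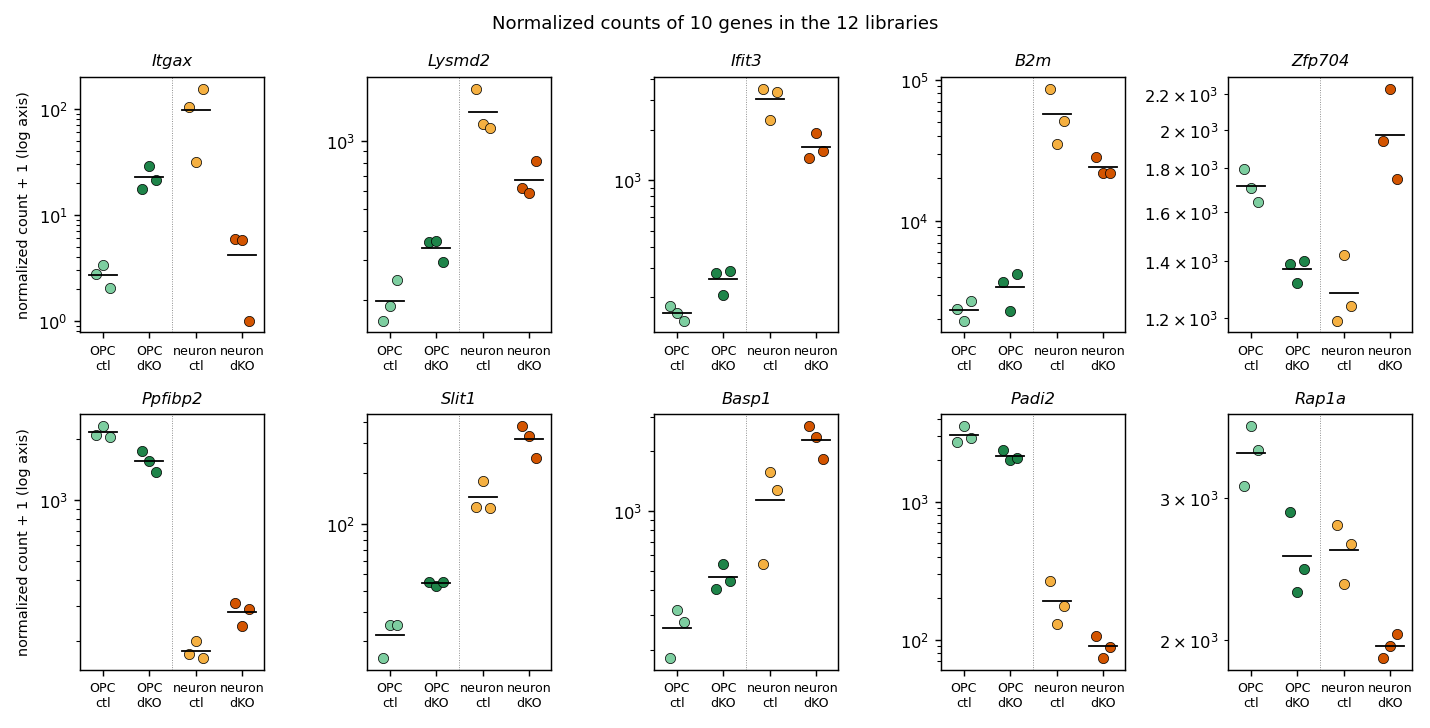
Normalized counts plus 1 on a logarithmic axis for 10 genes, with 1 point per library and a line at the mean of each group of 3. OPC and neuron libraries were counted and scaled separately, so only ctl and dKO of 1 preparation may be compared; dKO points lie on opposite sides of ctl for Itgax, Lysmd2, Ifit3, Zfp704 and Ppfibp2 and on the same side for Slit1, Basp1, Padi2 and Rap1a.

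Genes of MHC class I and antigen processing and of the interferon response were mostly lower in neuron dKO libraries, while their mean level overlapped between the groups in OPCs. MHC class I molecules present peptides that the immunoproteasome has cut and the TAP transporter has carried into the endoplasmic reticulum, and interferons induce these genes together with many antiviral genes. Of 22 genes of MHC class I and antigen processing, 18 were higher in OPC dKO libraries and 22 were lower in neuron dKO libraries, with medians of 0.36 and -1.06, beside 0.02 and 0.01 for all matched genes. At an unadjusted p under 0.05, 5 were higher in OPCs and 19 lower in neurons, and the changes differed for 17. Of 48 interferon response genes, 41 were higher in OPCs and 47 lower in neurons, with medians of 0.29 and -0.68. At an unadjusted p under 0.05, 6 were higher in OPCs and 35 lower in neurons, and the changes differed for 30. The neuron medians stayed negative with any library left out, from -1.30 to -0.75 for class I and from -0.88 to -0.60 for the interferon genes. In OPCs the medians without dKO replicate 3 were 0.16 and 0.01.

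The promoters of 4 genes that were higher in OPCs and lower in neurons at an unadjusted p under 0.05 are shown because they carry the interferon-stimulated response element, searched as 2 copies of GAAA with 2 bases of any kind between them or, on the other strand, 2 copies of TTTC spaced likewise. They were taken from 10 interferon and class I genes with these directions, of which 6 held the motif, while Irf1, Psmb10 and H2-D1 held no match in their windows and Tap2 had no window. Each line gives the 250 bases upstream of a RefSeq start site on GRCm38.p6, 5′ to 3′ on the strand of the gene, with the matches in capitals.
Ifit3 (chr19:34583279-34583528, plus strand): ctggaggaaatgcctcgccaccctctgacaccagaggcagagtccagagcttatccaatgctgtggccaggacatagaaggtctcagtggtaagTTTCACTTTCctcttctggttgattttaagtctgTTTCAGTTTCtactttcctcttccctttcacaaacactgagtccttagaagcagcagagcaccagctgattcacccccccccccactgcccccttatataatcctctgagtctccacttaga
Irgm1 (chr11:48871421-48871670, minus strand): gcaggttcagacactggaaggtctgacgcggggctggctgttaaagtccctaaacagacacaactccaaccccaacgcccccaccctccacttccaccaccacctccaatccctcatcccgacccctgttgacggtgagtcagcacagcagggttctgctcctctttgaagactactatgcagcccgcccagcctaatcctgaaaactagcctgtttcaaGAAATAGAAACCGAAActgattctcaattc
B2m (chr2:122147437-122147686, plus strand): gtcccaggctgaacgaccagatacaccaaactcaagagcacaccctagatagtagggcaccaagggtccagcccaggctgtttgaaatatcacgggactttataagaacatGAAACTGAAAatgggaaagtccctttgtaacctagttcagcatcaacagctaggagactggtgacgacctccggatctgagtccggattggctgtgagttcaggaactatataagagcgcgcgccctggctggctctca
H2-T22 (chr17:36042743-36042992, minus strand): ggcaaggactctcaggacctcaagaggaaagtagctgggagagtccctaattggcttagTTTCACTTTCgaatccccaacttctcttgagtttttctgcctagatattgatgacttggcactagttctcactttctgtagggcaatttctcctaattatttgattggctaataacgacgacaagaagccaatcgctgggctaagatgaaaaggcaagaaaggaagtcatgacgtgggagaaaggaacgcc

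The matches begin 156 and 122 bases before the start site in Ifit3, 139 before it in B2m and 191 before it in H2-T22, and the 2 matches in Irgm1, 30 and 24 bases before the start site, overlap. The motif was found in 3.44% of all 32851 promoter windows (300 bases, 250 before to 50 after the start site) and in 3.68% of the matched genes that had a window. It was found in 21 of 34 interferon response genes (61.8%), 5 of 19 class I genes (26.3%), 10 of 56 genes higher in OPCs but lower in neurons (17.9%), 2 of 12 genes with the reverse directions (16.7%), 1 of 11 genes lower in both (9.09%) and 0 of 29 genes higher in both. A match is a string of letters and does not show binding.

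Ifit3 on chromosome 19 (ENSMUSG00000074896), an interferon-induced protein with tetratricopeptide repeats, had 176, 160 and 144 counts in OPC ctl and 279, 207 and 285 in OPC dKO libraries, against 3513, 2301 and 3365 in neuron ctl and 1348, 1910 and 1502 in neuron dKO libraries. The groups were apart in both preparations. The change was 0.68 ± 0.18 in OPCs and -0.95 ± 0.21 in neurons, and their difference was 1.63 ± 0.28 (adjusted p = 0.173 by edgeR). Its near-identical neighbour Ifit3b had a difference of 1.70 ± 0.34, and reads may be split between the pair. Irgm1, an immunity-related GTPase, had 152, 108 and 164 counts in OPC ctl and 205, 176 and 308 in OPC dKO libraries, and 8195, 2719 and 5454 against 1654, 2530 and 1864 in neurons. These groups were apart as well, with a difference of 2.13 ± 0.50. Irf1, a transcription factor of the interferon response, was apart in both in the same directions, with 597, 506 and 620 against 738, 673 and 946 counts in OPCs and 3046, 1677 and 2186 against 974, 1448 and 1140 in neurons.

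B2m, the light chain shared by all class I molecules, had 86433, 35127 and 50770 counts in neuron ctl and 28501, 22010 and 21760 in neuron dKO libraries, without overlap. In OPCs it had 2356, 1956 and 2686 counts in ctl and 3676, 2308 and 4212 in dKO libraries, where replicate 2 lay within the ctl range. Its changes were 0.54 ± 0.22 and -1.25 ± 0.32. H2-T22, a non-classical class I heavy chain, was apart in both, at 311, 290 and 320 against 422, 327 and 479 counts in OPCs and 2894, 1313 and 2120 against 994, 980 and 963 in neurons. The class I heavy chain H2-K1 showed the neuron difference (-1.38 ± 0.38), while its change in OPCs was 0.38 ± 0.19 with overlapping groups. Class I heavy chains are near-identical copies, and reads may be split among them. The immunoproteasome subunit Psmb8 had 3782, 1326 and 2171 counts in neuron ctl and 1022, 1001 and 745 in neuron dKO libraries, and a change of 0.62 ± 0.35 in OPCs with overlapping groups. Psmb10, another subunit, was apart in both, with a difference of 1.04 ± 0.24. Of 20 endothelial markers, 20 were higher in OPC dKO and 20 lower in neuron dKO libraries. At an unadjusted p under 0.05 these were 1 and 5, beside 6.25% higher in OPCs and 4.05% lower in neurons of all genes tested. Relative to the ctl mean, their mean log2 level was 0.05, -0.07 and 0.02 in neuron ctl and -1.02, -0.18 and -0.25 in neuron dKO libraries. For class I genes it was 0.62, -0.52 and -0.10 against -0.89, -0.95 and -1.21. The mean level of the endothelial markers overlapped between the groups in OPCs. These markers had medians of 0.39 (0.12 without OPC dKO replicate 3) and -0.41 (-0.23 without neuron dKO replicate 1), and their part in the class I and interferon changes was not tested.

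Microglia markers were higher in OPC dKO libraries, and their direction in neurons rested on 1 library. All 20 markers were higher in OPC dKO libraries with an unadjusted p under 0.05 (median 1.33), and all 20 were lower in neuron dKO libraries (median -0.70), where 1 had such a p, beside 4.05% of all genes tested in neurons. The changes differed at this level for 18 of 20. C1qa, a complement component of microglia, had 407, 429 and 540 counts in OPC ctl and 1560, 701 and 1813 in OPC dKO libraries, and 1650, 321 and 762 against 397, 855 and 415 in neurons. Fcer1g, an Fc receptor chain, had 59.5, 42.9 and 72.1 counts in OPC ctl and 134, 125 and 212 in OPC dKO libraries, and 583, 198 and 420 against 209, 300 and 142 in neurons. For both genes, the groups were apart in OPCs and overlapped in neurons. Without neuron ctl replicate 1 the median of the microglia list in neurons was 0.03. Summed over the list, the marker level ran from 165.2 to 203.1 FPKM in OPC ctl and 232.6 to 644.4 in OPC dKO libraries, and from 751.4 to 3383 TPM in neuron ctl and 648.4 to 1858 in neuron dKO libraries.

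MHC class II genes, which antigen-presenting cells use to show peptides to helper T cells, were higher in OPC dKO libraries for all 8 genes (median 1.55, 5 at an unadjusted p under 0.05) and lower in neuron dKO libraries for all 8 (median -1.01, 0 at that level), but the neuron median was 0.00 without neuron ctl replicate 1. H2-Aa had 44.6, 44.1 and 51.2 counts in OPC ctl and 131, 188 and 371 in OPC dKO libraries, and 752, 140 and 147 against 157, 164 and 135 in neurons, where 1 ctl library carried the difference. Cytokines, chemokines and NF-kB regulators were higher in OPCs for 27 of 28 genes (median 0.98, 20 at an unadjusted p under 0.05) and lower in neurons for 28 of 28 (median -0.78, 11 at that level). The neuron median was -0.32 without neuron ctl replicate 1 and the OPC median 0.59 without OPC dKO replicate 3. Cxcl1, a neutrophil chemokine, had 305, 220 and 306 counts in OPC ctl and 361, 362 and 456 in OPC dKO libraries, and 123, 64.2 and 75 against 44.1, 55.9 and 36.9 in neurons. Its groups were apart in both. Tnfaip3, an inhibitor of NF-kB signalling, differed by 1.82 ± 0.50 between the changes, with overlapping groups in both preparations.

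**Figure D4:**
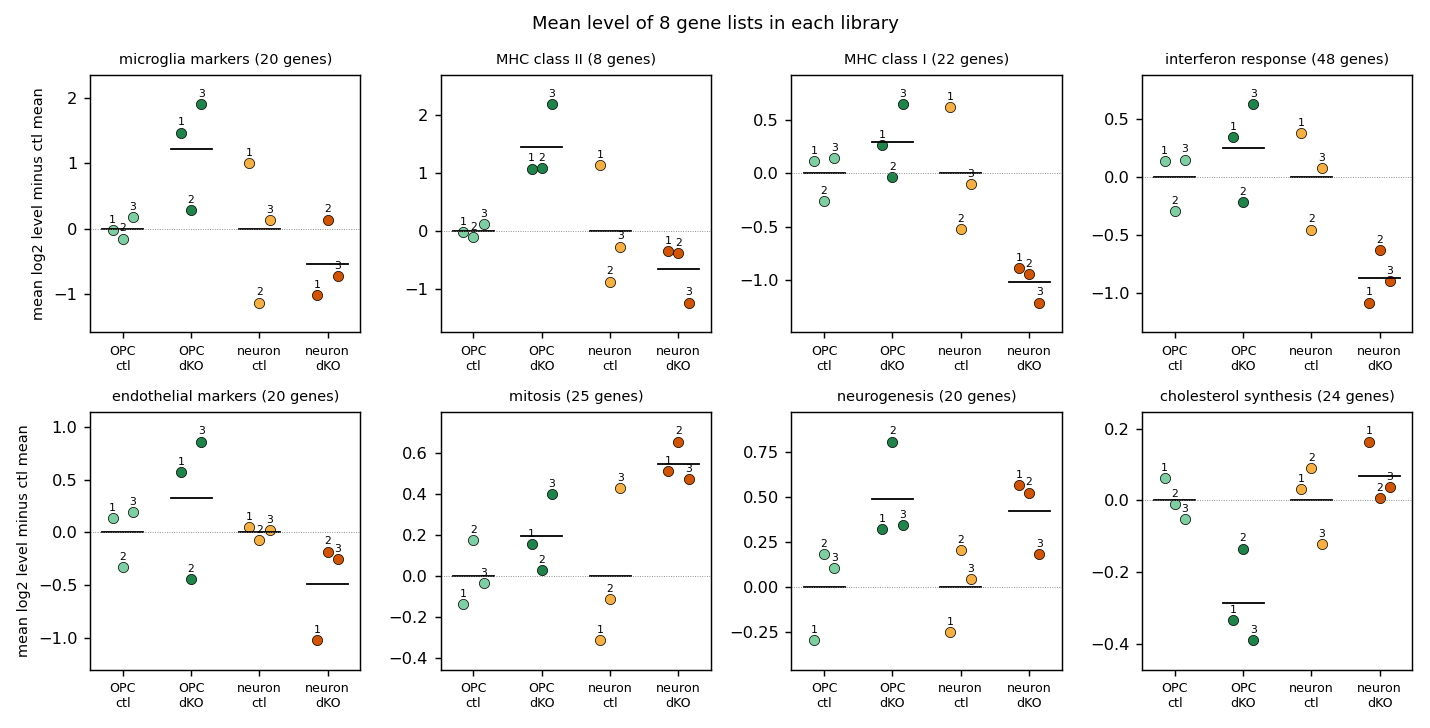
Mean log2 level of 8 gene lists in each library, relative to the mean of the ctl libraries of the same preparation, with replicate numbers beside the points and a line at each group mean. MHC class I and interferon genes are apart in neurons and overlap in OPCs, where dKO replicate 2 lies among the ctl libraries, and microglia markers and MHC class II are apart in OPCs and overlap in neurons.

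Astrocyte markers were higher in OPC dKO libraries for 20 of 20 genes (median 1.11, 17 at an unadjusted p under 0.05), and lower in neuron dKO libraries for 13 of 20 (median -0.38, 2 lower and 2 higher at that level). Without neuron ctl replicate 1 the neuron median was 0.48, so its sign turned on 1 library, and without OPC dKO replicate 2 the OPC median was 0.61. Gfap, an intermediate filament of astrocytes, was apart in both preparations, with 1154, 1155 and 1506 against 1762, 2148 and 1854 counts in OPCs and 328, 144 and 201 against 75.4, 131 and 139 in neurons. Gja1, the gap junction protein connexin 43, had 1660, 1780 and 2501 counts in OPC ctl and 2453, 5458 and 4644 in OPC dKO libraries, and 4156, 2966 and 3558 against 1403, 2651 and 2690 in neurons, where the groups were apart.

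Fewer genes, 17 against 72, were lower in OPCs and higher in neurons. They were 2.7% of the genes lower in OPCs and 2.5% of those higher in neurons. Of all matched genes, 4.99% were higher in neurons and 4.68% lower in OPCs, so this class was below the background. Zfp704 on chromosome 3 (ENSMUSG00000040209), a zinc finger protein, had 1795, 1708 and 1641 counts in OPC ctl and 1387, 1318 and 1398 in OPC dKO libraries, against 1189, 1421 and 1239 in neuron ctl and 1938, 2233 and 1746 in neuron dKO libraries. Both pairs of groups were apart, and the difference was -0.95 ± 0.17 (adjusted p = 0.173 by edgeR). Ppfibp2, a liprin beta scaffold protein, had 2095, 2311 and 2041 counts in OPC ctl and 1738, 1546 and 1367 in OPC dKO libraries, and 173, 198 and 164 against 309, 238 and 287 in neurons. Here too no dKO library reached the ctl range in either preparation. Dusp26, a phosphatase, had 2428, 3372 and 2719 counts in OPC ctl and 1251, 1172 and 892 in OPC dKO libraries, and 215, 194 and 94.3 against 276, 241 and 218 in neurons. The change was -1.36 ± 0.17 in OPCs and 0.55 ± 0.32 in neurons. Numbl, a Notch pathway adaptor of neural progenitors, differed by -1.42 ± 0.28. Neither Dusp26 nor Numbl is among the 17 genes, as their unadjusted p in neurons by edgeR was 0.12 and 0.054. Elavl3, a neuronal RNA-binding protein among the 17, differed by -0.97 ± 0.30, with overlapping groups in both preparations. Hmgn2, a nucleosome-binding protein with many near-identical gene copies between which reads may be split, had 12701, 16310 and 24477 counts in neuron ctl and 37469, 35063 and 30392 in neuron dKO libraries. In OPCs it had 1584, 1785 and 1850 against 1079, 273 and 902.

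Cholesterol synthesis genes were mostly lower in OPC dKO libraries, in which 16 of 20 oligodendrocyte markers were also lower (median -0.39), and the part of these cells was not tested. Of 24 genes of this pathway, which supplies the sterol of myelin membranes, 23 were lower in OPC dKO libraries (median -0.28, 10 at an unadjusted p under 0.05), whereas 13 were higher and 11 lower in neurons (median 0.08, 3 higher and 1 lower at that level). The neuron median was -0.06 without neuron dKO replicate 1. Lss, which closes the ring to lanosterol, had 1496, 1542 and 1377 counts in OPC ctl and 1134, 1263 and 1088 in OPC dKO libraries, and 357, 352 and 420 against 445, 453 and 572 in neurons, apart in both. Dhcr7, which makes cholesterol from its last precursor, was changed by -0.16 ± 0.10 in OPCs and 0.95 ± 0.32 in neurons. For 7 of the 24 genes the change in OPCs was the lower one at an unadjusted p under 0.05.

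Cell cycle genes were higher in neuron dKO libraries, while few of them passed the test of the difference between the preparations. All 25 genes of mitosis were higher in neuron dKO libraries (median 0.49, 14 at an unadjusted p under 0.05), against 18 higher and 7 lower in OPCs (median 0.07, 1 higher and 1 lower at that level). Of 32 DNA replication genes, 28 were higher in neurons (median 0.39, 8 at that level) and 15 in OPCs (median -0.03). The change in OPCs was the lower one at an unadjusted p under 0.05 for 2 of the 25 and 3 of the 32 genes, beside 4.81% of all matched genes. The OPC median was 0.23 for mitosis without OPC dKO replicate 2 and 0.04 for DNA replication without OPC ctl replicate 1. The neuron median of the mitosis list was 0.74 without neuron ctl replicate 3. Aurka, a mitotic kinase, had 236, 252 and 359 counts in neuron ctl and 573, 479 and 530 in neuron dKO libraries, but 28, 26.2 and 23 against 23.5, 19 and 34.2 in OPCs, where the groups overlapped. Cdc45, a replication helicase factor, had 191, 195 and 204 counts in neuron ctl and 406, 306 and 274 in neuron dKO libraries. Prc1, which bundles spindle microtubules, was lower in OPC dKO libraries, at 138, 161 and 112 against 77.2, 97.1 and 74.9 counts.

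Other genes had the same direction in both preparations. Neurogenesis genes were higher in 17 of 20 cases in OPCs (median 0.45) and 17 of 20 in neurons (median 0.43), with 4 and 6 at an unadjusted p under 0.05, and the signs were the same for 14 and opposite for 6. The changes differed at an unadjusted p under 0.05 for 3 of the 20, beside 11.7% of all matched genes. Neuron markers were higher in 17 of 19 cases in either preparation, with medians of 0.39 and 0.54 and with 3 at that level in each. Of all genes tested, 6.25% were higher at that level in OPCs and 4.96% in neurons. The mean level of the neuron markers overlapped between the groups in both preparations. That of the neurogenesis genes was apart in OPCs and overlapped in neurons. One member of each list was lower in OPC dKO libraries at that level, Stmn1 (-0.43 ± 0.19) among the neurogenesis genes and Elavl3 (-0.39 ± 0.17) among the neuron markers. The median of the neuron markers was 0.20 in OPCs when dKO replicate 2 was left out and 0.17 in neurons when dKO replicate 1 was left out, and that of the neurogenesis list in neurons was 0.26 without ctl replicate 1. Slit1 on chromosome 19 (ENSMUSG00000025020), a repulsive axon guidance ligand, had 14.9, 23.8 and 24 counts in OPC ctl and 44, 41.7 and 43.9 in OPC dKO libraries, and 124, 179 and 123 against 378, 331 and 243 in neurons. The groups were apart in both. Its change was 1.05 ± 0.33 in OPCs and 1.16 ± 0.26 in neurons, and the difference of -0.10 ± 0.40 leaves room for unequal changes.

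Basp1, a growth cone protein, had 181, 316 and 277 counts in OPC ctl and 405, 542 and 443 in OPC dKO libraries, and 541, 1579 and 1283 against 2684, 2368 and 1828 in neurons. Tenm2, a teneurin of synaptic adhesion, had 56, 58.4 and 57.5 counts in OPC ctl and 78.2, 112 and 111 in OPC dKO libraries, and 73.1, 82.7 and 62.2 against 236, 158 and 104 in neurons. The potassium channel gene Kcnn2 had changes of 1.48 ± 0.37 in OPCs and 0.67 ± 0.20 in neurons. All of these were apart in both preparations. The 40 genes higher in both also held the transcription factors Pou3f2 (0.74 and 0.62), Bcl11a (1.23 and 0.66) and Sp9 (1.46 and 0.71), known from forebrain development, which were singled out after their values were seen.

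Most oligodendrocyte markers had lower values in dKO libraries, but their mean level overlapped between the groups in both preparations. In OPCs 16 of 20 were lower (median -0.39, 5 at an unadjusted p under 0.05), and in neurons 20 of 20 were lower (median -0.88, 3 at that level). The neuron median was -0.17 without neuron ctl replicate 1 and the OPC median -0.23 without OPC ctl replicate 2. Padi2 on chromosome 4 (ENSMUSG00000028927), an arginine deiminase of oligodendrocytes, had 2696, 3526 and 2889 counts in OPC ctl and 2370, 1994 and 2073 in OPC dKO libraries, and 265, 129 and 176 against 106, 72.9 and 88 in neurons. Rap1a, a small GTPase, had 3100, 3682 and 3441 counts against 2883, 2295 and 2448 in OPCs and 2778, 2344 and 2633 against 1900, 1964 and 2037 in neurons. Nefh, the neurofilament heavy chain, had 145, 160 and 230 against 88.9, 127 and 96.3 counts in OPCs and 133, 141 and 151 against 60.7, 27.5 and 71.7 in neurons. Every dKO library of these 3 genes lay below the ctl libraries. Pla2g4a, the cytosolic phospholipase A2, was also apart and lower in both, at 609, 620 and 688 against 529, 346 and 568 counts in OPCs and 1780, 1241 and 1284 against 488, 878 and 775 in neurons. Its change was -0.41 ± 0.18 in OPCs and -1.01 ± 0.24 in neurons, of which the neuron change alone had an unadjusted p under 0.05. Oligodendrocyte markers summed to 615 to 3368 TPM in neuron ctl and 840.4 to 1764 TPM in neuron dKO libraries, and their part in the neuron changes of these genes was not tested.

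**Figure D5:**
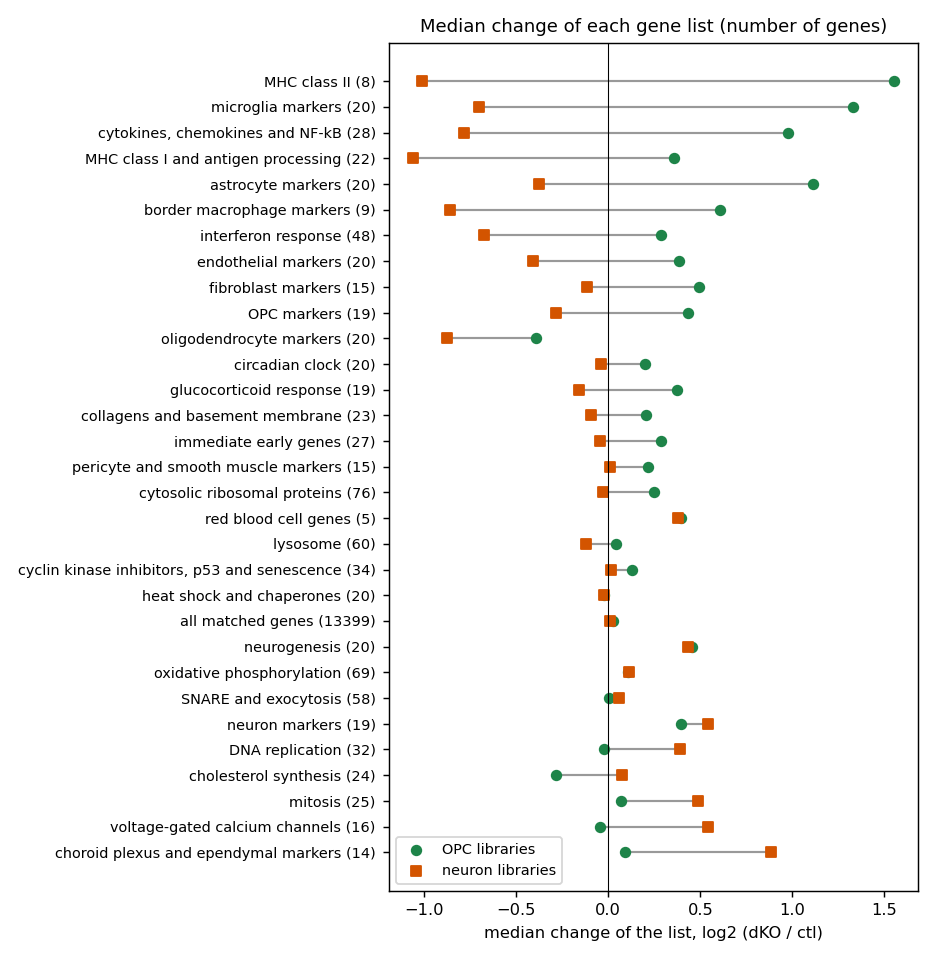
Median log2 change of 30 gene lists and of all matched genes in OPCs (circles) and neurons (squares), ordered by the median difference of the changes, with the number of genes in brackets. MHC class II, microglia, cytokine and class I lists span 0 with OPCs on the right, neurogenesis and neuron markers lie to the right in both, and oligodendrocyte markers lie to the left in both.

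Oxidative phosphorylation genes had medians of 0.11 in OPCs and 0.11 in neurons, with 58 and 63 of 69 genes higher and 0 at an unadjusted p under 0.05 in either, and the medians were 0.02 without OPC dKO replicate 2 and -0.04 without neuron dKO replicate 1. Of 58 SNARE and exocytosis genes, 29 were higher in OPCs and 33 in neurons, with medians of 0.00 and 0.06 (-0.01 without neuron dKO replicate 1 and 0.13 without neuron dKO replicate 2). Heat shock genes and chaperones had medians of -0.02 in both, but leaving out OPC dKO replicate 2 gave 0.06 in OPCs and leaving out neuron ctl replicate 2 gave 0.06 in neurons. Lysosome genes were higher in OPCs for 39 of 60 (median 0.04, and 0.00 without OPC ctl replicate 3) and lower in neurons for 42 of 60 (median -0.12, and -0.06 without neuron ctl replicate 1). The change in OPCs was the higher one for 11 of them and the lower one for 0 at an unadjusted p under 0.05, beside 6.89% and 4.81% of all matched genes. Ppt1, a lysosomal thioesterase, had 1915, 1963 and 1901 counts in OPC ctl and 3402, 3390 and 3042 in OPC dKO libraries, and 2858, 2907 and 2607 against 2441, 2294 and 2708 in neurons. OPC dKO libraries lay above ctl, and the neuron groups overlapped. The difference was 0.94 ± 0.16 (adjusted p = 0.173 by edgeR).

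Position on the chromosome was not used to choose genes. Of all matched genes, 1.26% lay within 10 Mb of Cacna1c, 0.806% within 10 Mb of Cacna1d and 1.26% within 10 Mb of Cspg4, the NG2 gene, by the deposited coordinates of the OPC table. Of the 146 genes with an unadjusted p under 0.05 in both preparations, 8 lay in these windows, but 5 without OPC dKO replicate 3, neuron ctl replicate 2 or neuron ctl replicate 3, 4 without OPC ctl replicate 2, 3 without neuron ctl replicate 1 and 1 without neuron dKO replicate 3. Those near Cacna1c included Tmem72, higher in both, and Depp1 and Tnfrsf1a, higher in OPCs and lower in neurons. Those near Cacna1d were Bmpr1a and Gng2, higher in both, and Ankrd28 and Ncoa4, lower in both. These genes were picked for mention with their values known.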

How the data were processed

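Gene-level values of 12 RNA-seq libraries from mouse cortex were compared. The OPC table the authors deposited holds raw counts of reads on Ensembl genes, with FPKM values, unnormalized and length-scaled respectively. The deposited neuron table holds estimated counts of RefSeq transcripts, with TPM values. The methods name HISAT2, GRCm38 and featureCounts, the labels name mm39, and the program behind the estimated counts is not given in the sources used here. Both tables also hold the authors' fold changes and p-values, which were not used. Estimated counts were summed over 66298 transcripts per gene and rounded, and symbols on several rows (26 in the OPC table) were not matched. FPKM and TPM served only for marker levels.

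Each table was tested with edgeR 4.0.16 (R 4.3.3; TMM factors, quasi-likelihood test, genotype as the only term, Benjamini-Hochberg adjustment over all genes with a mean count of at least 10). The difference of the changes was tested as an interaction over the 13399 matched genes, with the library sizes and TMM factors of each table. Normalized counts are scaled to the mean library size of their table, SE was taken as the ratio of the change to the root of its F statistic, and the fits were tested on simulated data. Counting differed between the tables, so levels are not compared between them. Replicates differed by more than sampling noise (chi-square per degree of freedom of at least 15.9). The genes named are the targeted, Y-linked and study-named ones, the 8 with the smallest p in each direction of the difference and each pair of directions, and up to 3 per list. Members, the 33 lists and the named genes were chosen with earlier results of these data known, and the study chose its named genes on these samples. Alternatives were DESeq2 1.42.0, voom from limma 3.58.1, RLE factors, TMM over all libraries, minimum mean counts of 1, 50 or 100, other thresholds and correlations, a replicate block and each library left out. The term for Y-linked transcripts was added after the data were seen.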

Additional observations from a re-analysis of the deposited data

Results flagged for a closer look

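For 38 of the 152 genes named by the rule, the dKO libraries did not overlap the ctl libraries in either preparation and lay on opposite sides of them in OPCs and neurons, and the difference of the changes had an unadjusted p under 0.05. Without Itgax, which passed the minimum mean count only through the groups where it was high, the unadjusted p of the other 37 lay between 4.89e-05 and 0.0124 and the adjusted p by edgeR between 0.173 and 0.322. None of the 37 passed the correction over all matched genes with edgeR, while 29 passed it with DESeq2 and 12 with the term for Y-linked transcripts. The rule names genes partly by their p for the difference and by their directions, so the 38 reflect that choice. Over all 13399 matched genes, 172 (1.28%) were apart in both preparations in opposite directions and 132 (0.985%) in the same direction. The change in OPCs was the higher one for 20 of the 37 genes and the lower one for 17. Each value below is the log2 change in OPCs minus that in neurons. Among interferon and antigen presentation genes it was 2.13 for Irgm1, 1.63 for Ifit3, 1.70 for Ifit3b, 1.41 for Irf1, 1.52 for H2-T22 and 1.04 for Psmb10. Among further genes it was 2.06 for Slfn2, 3.38 for Neurl3, 1.44 for Cxcl1 and 2.04 for Ifitm10. It was likewise 1.41 for Ier3, 1.03 for Dusp6, 1.05 for Rgcc and 0.82 for Pdk4. For Itgax the value was 8.39, and both its OPC ctl and its neuron dKO libraries held few reads. The circadian output gene Dbp had 1.16, the astrocyte filament Gfap 1.56, the lysosomal enzyme Hexa 0.61, and Lysmd2, Cyp2d22 and Fmo2 had 1.76, 1.25 and 1.79.

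In the other direction, the difference was -1.02 for the calcium channel subunit Cacnb4, and -0.72, -1.12 and -0.62 for the cholesterol synthesis genes Lss, Dhcr7 and Sqle, and -0.84 for the neurogenesis gene Stmn1. Further values were -1.20 for Cep170b, -1.11 for Pak3, -0.79 for Bicd1, -1.11 for Ppfibp2 and -1.42 for Numbl. It was -0.95 for Zfp704, -0.81 for Zfp90, -0.74 for Cxxc5 and -2.16 for Hmgn2. It was -1.91 for Dusp26, -1.23 for Ccdc163 and -1.18 for Nmral1.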

How the results depend on the processing

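Of 4910 values recomputed for 275 changes of named genes, 4553 kept their direction and side of the unadjusted p of 0.05, 357 lost that p and 0 reversed. The number of genes called in OPCs (1) was 291 with DESeq2, 7 with a mean count of at least 1, 27 with a replicate block, 181 with the Y-linked term and 1 to 199 with each library left out (199 without OPC dKO replicate 2). In neurons (0) it was 88 with DESeq2 and 0 under the others, with 1293 at an unadjusted p under 0.05. The number whose changes differ (0 with edgeR and with voom) was 156 with DESeq2, 80 with the Y-linked term and 0 to 3 with each library left out (3 without OPC dKO replicate 2, 1 without neuron ctl replicate 2). Of the 156 genes 107 and of the 80 genes 74 had the higher change in OPCs, 153 and 78 had changes of opposite sign, and 40 were in both. The correlation of -0.12 stayed negative, at -0.06 with a mean count of at least 1, -0.22 with the Y-linked term and -0.23 to -0.025 with each library left out. At an unadjusted p under 0.01 in both preparations, 3 genes had the same direction and 7 opposite directions. Opposite genes (89) numbered 291 with the Y-linked term and 47 to 197 with each library left out, and genes of equal direction (57) 36 to 114. Lists with medians of opposite sign (21 of 33) numbered 19 to 23. Genes near the targeted loci and Cspg4 (8) numbered 16 with the Y-linked term and 1 to 11 with each library left out. The causes were not tested.

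Deviations of same-numbered libraries from their group mean correlated at -0.09 to 0.22 between ctl and dKO in OPCs. The range was -0.08 to 0.17 in neurons and -0.22 to 0.06 between the preparations. For libraries of unlike number the ranges were -0.409 to 0.275, -0.148 to 0.193 and -0.235 to 0.236. With deviations taken from a mean of only 3 libraries, these values cannot decide whether libraries were paired. With the replicate block, 111 genes were higher in OPCs and lower in neurons, 19 the reverse and 58 equal in direction, r was -0.10, and 97 of the 146 genes remained at an unadjusted p under 0.05 in both. The median standard error of the difference of the changes was 0.29, with 3 pools per group, and no smallest detectable difference was measured.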

Other observations

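Markers of the choroid plexus and ependyma were higher in neuron dKO libraries for 13 of 14 genes (median 0.89). At an unadjusted p under 0.05, 9 were higher and 1 lower, beside 4.96% and 4.05% of all genes tested in neurons. The lower one was Tmem212, with 42.7, 8.75 and 20.4 normalized counts in neuron ctl and 3.92, 7.57 and 6.14 in neuron dKO libraries. In OPC dKO libraries 11 of 14 were higher (median 0.09, 0 at an unadjusted p under 0.05). That median was -0.13 without OPC ctl replicate 2 and 0.44 without OPC ctl replicate 1. The mean level of the list overlapped between the groups in both preparations. Aqp1, a water channel of the choroid plexus, had 308, 427 and 298 normalized counts in neuron ctl and 1438, 467 and 774 in neuron dKO libraries, which did not overlap, and 2987, 1401 and 1531 against 2004, 2084 and 2226 in OPCs, which did. The difference of its changes was -1.28 ± 0.51. The summed marker level ran from 12600 to 27120 TPM in neuron ctl and from 25650 to 68140 TPM in neuron dKO libraries. Insm1, a zinc finger factor of nascent neurons, had 96.5, 163 and 154 counts in neuron ctl and 393, 321 and 276 in neuron dKO libraries, with overlapping groups in OPCs.

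Cytosolic ribosomal protein genes were higher in OPC dKO libraries for 70 of 76 (median 0.25, 12 at an unadjusted p under 0.05) and lower in neuron dKO libraries for 51 of 76 (median -0.03, 0 at that level). Relative to the ctl mean, their mean log2 level was 0.42, 0.31 and -0.07 in OPC dKO and 0.02, -0.05 and 0.03 in OPC ctl libraries. These groups overlapped, with dKO replicate 3 below every ctl library. The OPC median was 0.14 without OPC dKO replicate 1, and the neuron median 0.05 without neuron ctl replicate 1. Glucocorticoid response genes were higher in OPCs for 16 of 19 (median 0.37, 6 at that level) and lower in neurons for 14 of 19 (median -0.16, 3 at that level, and -0.25 without neuron dKO replicate 3). Zbtb16, a transcription factor induced by glucocorticoids, had 213, 310 and 224 counts in OPC ctl and 1083, 368 and 1585 in OPC dKO libraries, and 214, 424 and 279 against 213, 385 and 261 in neurons. Immediate early genes were higher in OPCs for 25 of 27 (median 0.29, 7 at that level) and in neurons for 13 of 27 (median -0.05, and 0.02 without neuron ctl replicate 2 or -0.13 without neuron ctl replicate 1). The OPC median of the immediate early genes was 0.08 without OPC dKO replicate 3.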
